A study of Rattus norvegicus with 6 samples.

Results

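The brush border of the renal proximal tubule carries a set of membrane peptidases, and 8 of their genes are described here: Mme, Mep1a, Mep1b, Anpep, Enpep, Xpnpep2, Dpp4 and Dpep1. They were chosen as membrane peptidases of this border, and a probe belonged to one of them if its accession, with the version dropped, mapped to the symbol. For each gene the probe with the highest mean log2 processed signal over the 6 arrays was used. All 8 genes were found and tested, among 31193 tested transcripts. The 8 were well above background on 6 of 6 arrays and none was saturated, so no gene was admitted through 1 group alone.

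The RNA came from kidney cortex. The animals were male Sprague-Dawley rats (Crl:CD(SD)), which were 5 weeks old when purchased and were kept on a basal diet. Corn oil was given to 3 rats for 4 weeks, and the other 3 rats were given carbon tetrachloride, a chlorinated solvent, at 100 mg/kg/day for the same time. Each rat gave 1 single-colour Cy3 array, and no dose of corn oil is given in the labels. The series' own design text calls the treatment benzyl acetate, but the title and the labels of the treated samples say carbon tetrachloride. That name is used here. The design text describes the rats of a group as biological replicates. The comparison asks which cortex transcripts differ between the treated and the vehicle rats.

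The proximal tubule takes filtered peptides apart in its lumen. Endopeptidases cut inside the chain, aminopeptidases and dipeptidyl peptidases remove residues from the amino end, and dipeptidases split the last pairs, after which peptide and amino acid transporters carry the products into the cell. The same enzymes end the action of filtered peptide hormones such as angiotensins, kinins and natriuretic peptides. Several are also surface antigens of other cells: Mme is CD10, Anpep is CD13 and Dpp4 is CD26 on lymphocytes.

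The values below are log2 of a probe's processed signal minus the log2 of the 75th percentile of signal on that array, so 0 is a probe at that percentile and 1 unit is a 2-fold difference. Values of different probes are not compared with each other, and where the signals of a list are summed, its brightest probes weigh most. Of 61537 probes that are no controls, 68.5% to 72.1% gave a signal well above background on an array, the lowest share being that of corn oil replicate 2. Arrays correlated at 0.9914 to 0.9931 within corn oil, 0.9914 to 0.9927 within carbon tetrachloride and 0.9904 to 0.9937 between the groups, over the tested probes. Carbon tetrachloride replicate 3 lay alone on slide 2 and in scan 2, and the other 5 arrays shared slide 1. On slide 1 the corn oil arrays lay in row 1 and the treated arrays in row 2. Group and row therefore cannot be told apart within slide 1. Of 12 proximal tubule markers, 12 were well above background on all 6 arrays.

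No change of a peptidase gene passed the test. With limma and Benjamini-Hochberg adjustment over all transcripts, 0 of 8 genes had an adjusted p under 0.05, against 0.00321% of all tested transcripts, and 0 of 8 had an unadjusted p under 0.05, against 6.27% of transcripts. A fitted change of at least 2-fold was seen in 0 of 8, against 0.843% of transcripts. Their adjusted p ran from 0.834 to 0.999. The treated and the corn oil values overlapped for 8 of 8 genes, whereas they did not overlap for 12.8% of all transcripts. The fitted change was above 0 for 7 of the 8 and below 0 for Dpep1, against 52.2% of transcripts above 0, and the median change was 0.11 (log2) beside 0.0073 for all transcripts. Without corn oil replicate 2 that median was -0.0093. In whole cortex, a smaller number of cells that carry a transcript and less of it in each cell cannot be told apart.

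**Figure D1:**
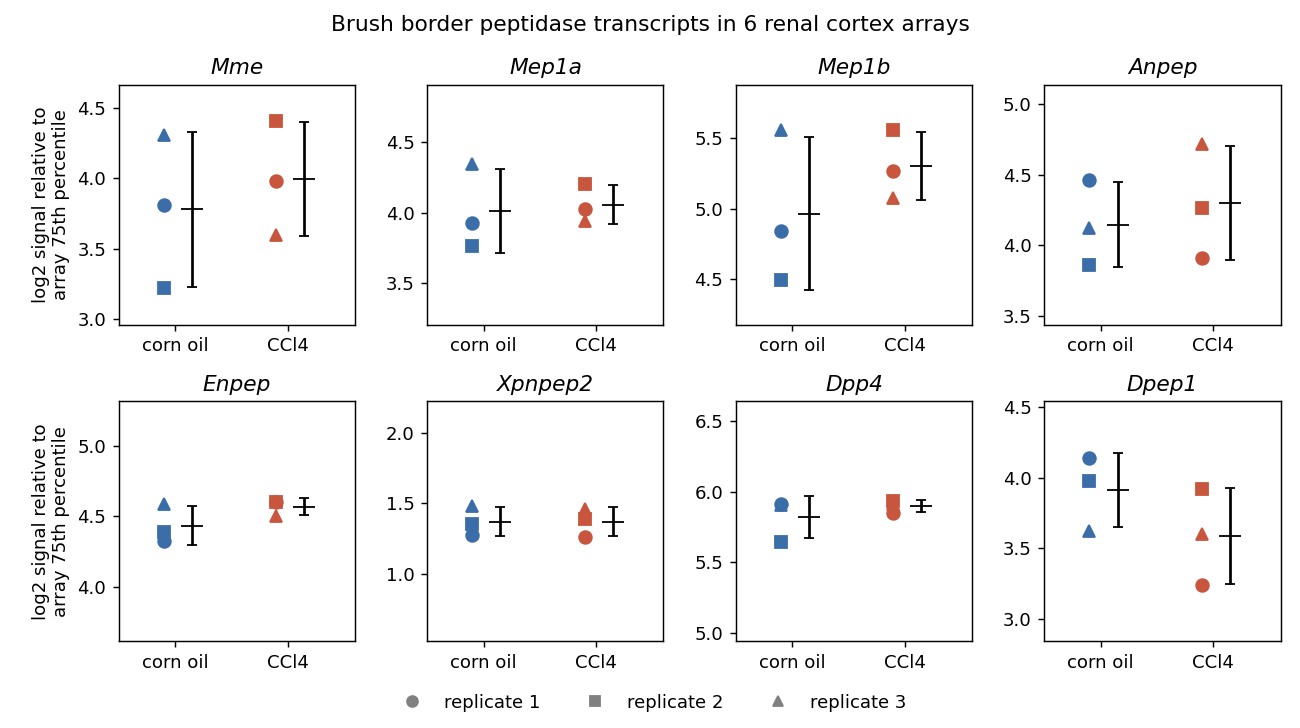
Each panel plots 1 gene, with the log2 signal relative to the array's 75th percentile on the y axis and the group on the x axis; points are single rats, marked by replicate number, and bars are mean ± SD (n = 3 per group). All panels span the same number of log2 units, and the points of both groups overlap in each of the 8.

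The endopeptidases are neprilysin and the meprins. Mme (NM_012608) encodes neprilysin, a zinc enzyme that cleaves natriuretic peptides, kinins and enkephalins. It stood at 3.81, 3.22 and 4.31 in corn oil replicates 1, 2 and 3 and at 3.98, 4.40 and 3.60 in carbon tetrachloride replicates 1, 2 and 3. The lowest rat and the second highest rat were both in the corn oil group. The group means were 3.78 ± 0.55 and 3.99 ± 0.40 (SD, n = 3), a log2 fold change of 0.22 ± 0.33 (SE) with a 95% interval from -0.59 to 1.02 (limma adjusted p = 0.913). Without corn oil replicate 2 the change was -0.06, and within slide 1 it was 0.41.

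Mep1a (NM_013143) encodes the alpha subunit of meprin, a zinc metalloprotease of the astacin family that is abundant in rodent kidney. Its values were 3.93, 3.77 and 4.35 in corn oil rats and 4.02, 4.21 and 3.94 in treated rats, and all treated values lay inside the corn oil range. The log2 fold change was 0.04 ± 0.17 (SE), with an interval from -0.36 to 0.45 (limma adjusted p = 0.974). It was -0.08 when corn oil replicate 2 was left out and -0.03 when carbon tetrachloride replicate 2 was.

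Mep1b (NM_013183) encodes the beta subunit, which anchors the meprin heterodimer in the membrane. It read 4.84, 4.49 and 5.56 in the corn oil rats and 5.27, 5.56 and 5.08 in the treated rats. Here too the treated values fell within the range of the controls. Among the 8 genes Mep1b had the fitted change farthest above 0, at 0.34 ± 0.29 (SE), with an interval from -0.37 to 1.04 (limma adjusted p = 0.851). The change stayed above 0 in each fit without 1 array but ranged from 0.10 without corn oil replicate 2 to 0.63 without corn oil replicate 3, and it was 0.45 within slide 1.

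The aminopeptidases remove residues from the amino end. Anpep (NM_031012) encodes aminopeptidase N, which prefers neutral residues. Its values were 4.46, 3.86 and 4.12 in corn oil rats and 3.91, 4.27 and 4.72 in treated rats. The highest value was that of carbon tetrachloride replicate 3, the array that lay alone on slide 2, and the change of 0.15 ± 0.25 (SE; interval -0.45 to 0.75, limma adjusted p = 0.919) was -0.06 within slide 1. Leaving out corn oil replicate 1 gave 0.31, and leaving out carbon tetrachloride replicate 1 gave 0.34.

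Enpep (NM_022251) encodes aminopeptidase A, which turns angiotensin II into angiotensin III. It measured 4.33, 4.39 and 4.59 in corn oil rats and 4.60, 4.60 and 4.50 in treated rats. Only corn oil replicate 3 reached the treated range. The change of 0.14 ± 0.09 (SE) had an interval from -0.09 to 0.36 (limma adjusted p = 0.835), and it stayed above 0 in each fit without 1 array, from 0.08 without corn oil replicate 1 to 0.21 without corn oil replicate 3.

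Xpnpep2 (NM_057155) encodes the membrane-bound aminopeptidase P, which cuts before a proline in second position and acts on bradykinin. It stood at 1.28, 1.35 and 1.48 in corn oil rats and at 1.26, 1.39 and 1.46 in treated rats, and the groups spanned nearly the same values. The change was 0.00038 ± 0.09 (SE), with an interval from -0.22 to 0.22 (limma adjusted p = 0.999). This was the smallest change among the 8.

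The remaining enzymes work on peptides with proline or alanine in second position and on dipeptides. Dpp4 (NM_012789) encodes dipeptidyl peptidase 4, which inactivates incretins and also sits on T cells. It read 5.91, 5.65 and 5.90 in corn oil rats and 5.85, 5.93 and 5.91 in treated rats, with corn oil replicate 2 lowest. The change was 0.08 ± 0.09 (SE), with an interval from -0.15 to 0.31 (limma adjusted p = 0.889), and it was -0.0088 without corn oil replicate 2. Of the listed T cell and other lymphocyte genes, 10 of 10 tested lay below their corn oil level, with a median log2 fold change of -0.89 (-0.32 after normexp background correction) and 0 past the threshold. Cd5, Cd2 and Cd3e were well above background on 0, 1 and 2 of the 3 treated arrays, so they were tested through the corn oil group, and without these 3 the median was -0.70. The summed level of that list, as signal relative to the 75th percentile, ran from 2.32 to 2.83 in corn oil rats and from 1.57 to 1.68 in treated rats. Most of that sum came from Cd3d and Cd3g. The part of the listed lymphocyte genes in the Dpp4 signal was not tested.

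Dpep1 (NM_053591) encodes the renal dipeptidase, which also hydrolyses leukotriene D4 and the antibiotic imipenem. Its values were 4.14, 3.98 and 3.62 in corn oil rats and 3.24, 3.92 and 3.60 in treated rats. It is the 1 gene of the 8 with a mean lower after carbon tetrachloride, at 3.59 ± 0.34 against 3.91 ± 0.26 (SD, n = 3). The lowest value came from carbon tetrachloride replicate 1 and the highest from corn oil replicate 1, with carbon tetrachloride replicate 2 close to the middle of the controls. The log2 fold change was -0.32 ± 0.21 (SE), with an interval from -0.84 to 0.20 (limma adjusted p = 0.834), and it ran from -0.49 without carbon tetrachloride replicate 2 to -0.15 without carbon tetrachloride replicate 1.

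The 95% intervals give how large a change these 6 arrays allow. For 6 of the 8 genes the interval lay wholly within a 2-fold change in either direction. For Mep1b and Mme it passed 2-fold on the upper side only. The intervals of all 8 held 0.

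**Figure D2:**
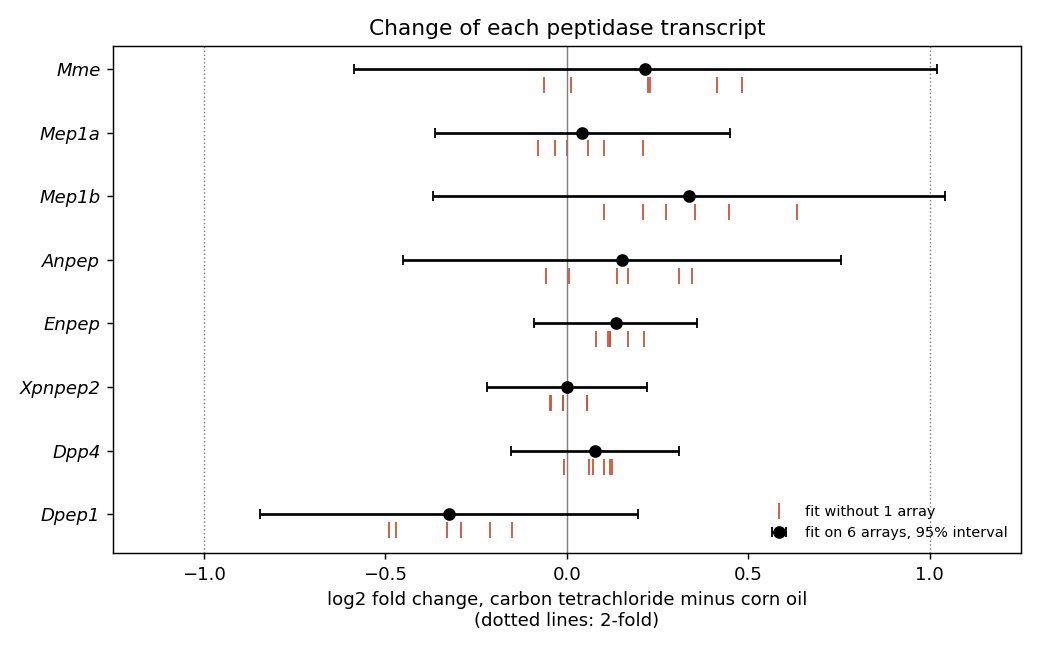
The x axis gives the log2 fold change, carbon tetrachloride minus corn oil, of each gene on the y axis; black points and bars are the limma estimate on 6 arrays with its 95% interval, red ticks the estimate without 1 array, and dotted lines a 2-fold change. All bars cross 0, those of Mep1b and Mme pass the upper dotted line, and the ticks lie on both sides of 0 for Mme, Mep1a, Anpep, Xpnpep2 and Dpp4.

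Rats of the same group lay farther apart for some of these genes than for others. The SD within groups was 0.48 for Mme and 0.42 for Mep1b, larger than that of 93.7% and 91.3% of tested transcripts. It was 0.36 for Anpep, 0.30 for Dpep1 and 0.23 for Mep1a, and 0.10 to 0.11 for Dpp4, Enpep and Xpnpep2, where the median transcript had 0.14. From the lowest to the highest rat, Mme spanned 2.28-fold and Mep1b 2.09-fold, and the corn oil rats alone spanned 2.13-fold and 2.09-fold. Xpnpep2 spanned 1.17-fold over all 6 rats.

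Mep1a, Mep1b and Mme placed the rats in a like order. In each of the 3, corn oil replicate 2 was lowest and the 2 highest arrays were corn oil replicate 3 and carbon tetrachloride replicate 2. This arrangement was held by 2.20% of all tested transcripts and was noticed after the values were seen. The deviation of corn oil replicate 2 from each gene's own mean was -0.27 for Mep1a, -0.64 for Mep1b and -0.67 for Mme. Corn oil replicate 3 deviated by 0.31, 0.43 and 0.42, and carbon tetrachloride replicate 2 by 0.17, 0.42 and 0.52. Anpep and Dpp4 were also lowest in corn oil replicate 2, but Dpep1 there lay 0.23 above its mean.

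Listed markers of the S3 segment, the last part of the proximal tubule, moved with these 3 genes on the same arrays. Of the 7 listed markers, 4 had the same lowest and the same 2 highest arrays: the transporter genes Slc22a7, Slc7a13, Slc22a24 and Slco1a1. In corn oil replicate 2 their deviations were -0.82, -0.93, -1.62 and -0.71. In corn oil replicate 3 they were 0.91, 0.42, 0.69 and 0.52. The other 3 listed markers, Slc5a1, Gatm and Agxt, did not follow, and in corn oil replicate 2 they deviated by 0.21, 0.48 and -0.02. The summed level of the S3 list, as signal relative to the 75th percentile, ran from 145 to 244 in corn oil rats and from 173 to 279.6 in treated rats, and 0 of its 7 genes were past the threshold. Slc7a13 and Gatm, with corn oil means of 6.89 and 5.63, gave most of that sum and deviated in opposite directions in corn oil replicate 2. The arrangement was also held by 2 of 9 other hydrolases of the border (Ggt1 and Enpp3), 2 of 10 luminal transporters (Slc3a1 and Slc6a18), 1 of 13 intracellular peptidases (Cndp2) and 1 of 16 peptide substrates and receptors (Agt). None of the 12 genes listed as proximal tubule markers, which were not chosen by segment, had it. Their summed level ran from 2729 to 3005 in corn oil rats and from 2858 to 3095 in treated rats. Corn oil replicate 2 was also the array with the fewest probes above background. The part of these markers, and of that array, in the spread of the 3 peptidases was not tested.

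**Figure D3:**
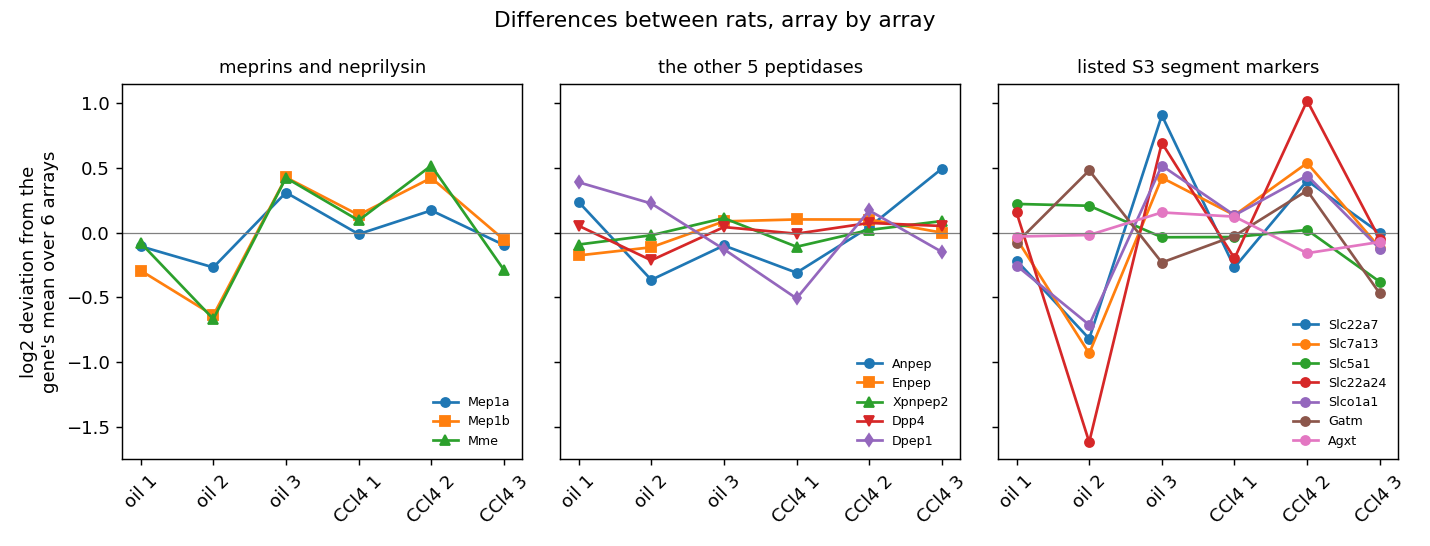
The y axis gives the log2 deviation of a gene from its own mean over the 6 arrays, and the x axis the arrays, oil 1 to 3 for corn oil and CCl4 1 to 3 for carbon tetrachloride; lines join the points of 1 gene and imply no order of rats. Mep1a, Mep1b and Mme dip at corn oil replicate 2, as do 4 of the 7 listed S3 markers, while the other 5 peptidases differ among themselves.

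Promoter sequence was looked up for the 8 genes in RefSeq (build GRCr8), which held all 8. The 250 bases before the annotated start are shown for Mep1a and Mme, 2 of the 3 genes that varied together between rats, to set their base composition side by side. The sequences run 5′ to 3′ on the gene's strand.
Mep1a, chr9:24971651-24971900, plus strand: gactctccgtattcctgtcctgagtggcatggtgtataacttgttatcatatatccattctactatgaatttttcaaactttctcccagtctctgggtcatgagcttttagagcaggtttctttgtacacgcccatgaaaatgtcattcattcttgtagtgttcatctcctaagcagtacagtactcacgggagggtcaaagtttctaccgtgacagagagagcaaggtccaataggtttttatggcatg
Mme, chr2:149872247-149872496, plus strand: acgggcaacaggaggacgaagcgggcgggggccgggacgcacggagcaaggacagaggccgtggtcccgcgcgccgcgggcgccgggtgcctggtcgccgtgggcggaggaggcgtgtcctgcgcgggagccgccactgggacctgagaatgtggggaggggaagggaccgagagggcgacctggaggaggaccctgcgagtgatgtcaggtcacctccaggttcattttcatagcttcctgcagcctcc
The window of Mme held 70.4% G and C and that of Mep1a 42.0%, where the median of 33469 rat promoters of that length was 51.2%.

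Other probes of the same gene, which read the same RNA at another spot, were present for Mep1a, Mep1b, Enpep and Dpp4. All 5 other probes had the direction of the chosen probe, and 0 passed the threshold when 42400 probes were tested alone. The second Mep1a probe ran from 3.32 to 3.91 and its deviations differed from those of the chosen probe by at most 0.04 on any array. For Mep1b the second probe ran from 2.51 to 3.60 and differed by at most 0.07, against a span of 1.07 between rats. The second Enpep probe differed by up to 0.10 and the other Dpp4 probes by up to 0.13 and 0.14, which is large beside the spans of 0.28 and 0.29 of the chosen Enpep and Dpp4 probes. The differences between rats were shared by 2 spots for the meprins and only partly for Enpep and Dpp4.

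**Figure D4:**
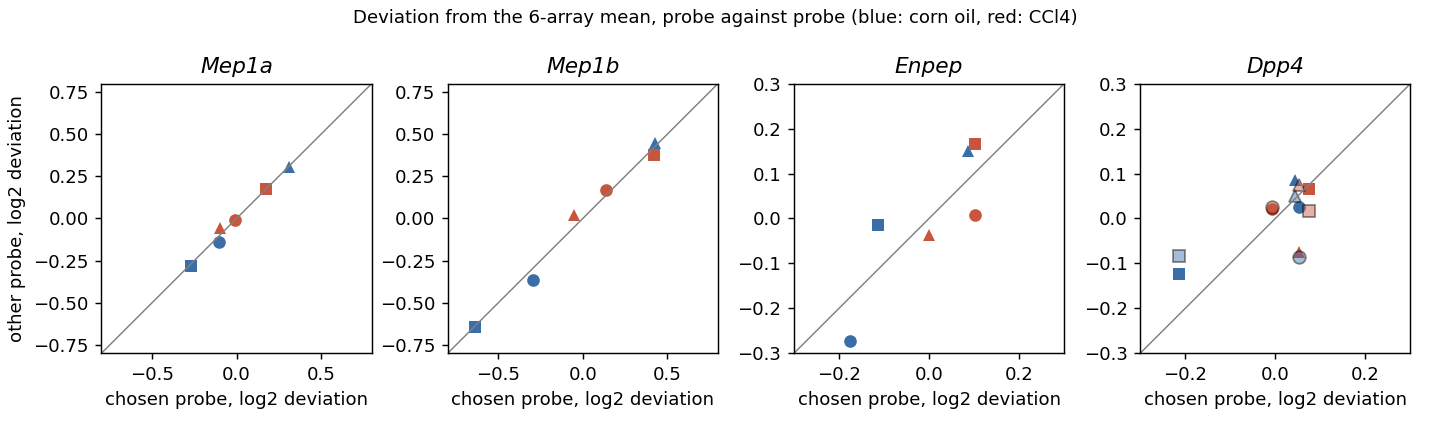
Each panel sets the log2 deviation from the 6-array mean of the chosen probe (x axis) against that of another probe of the same gene (y axis), with 1 point per array, blue for corn oil and red for carbon tetrachloride, as circle, square and triangle for replicates 1, 2 and 3; paler outlined points are a further Dpp4 probe and the grey line marks equality. The points of Mep1a and Mep1b lie along the line and those of Enpep and Dpp4 scatter around it, on axes with a narrower span.

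Transcripts whose values over the 6 arrays lay closest to these genes were found by the root mean square distance between deviations from each gene's own mean. The search was limited to tested transcripts with a gene symbol (12341 of 31193), with the 8 peptidases left out. The distance was not scaled by a gene's spread. Closest to the mean profile of the 8 were Mat2a, Carhsp1 and Slc6a18, at 0.04 each (log2). For single peptidases, a search added after the values were seen, Mep1b lay closest to Cidec at 0.04, to Slco1a1 at 0.06 and to Cldn3 at 0.07, and Mep1a to Nmrk1 at 0.04. The closest to Mme was Slco4c1 at 0.10 and the closest to Anpep was Slc16a8 at 0.09. Dpp4 lay closest to Txndc11 at 0.03, Enpep to Phc1 at 0.02 and Xpnpep2 to Chka at 0.02. Dpep1 lay closest to Fhl2 at 0.03, Fam180a at 0.07 and Bmal1, a gene of the circadian clock, at 0.07. Bmal1 deviated by -0.55 in carbon tetrachloride replicate 1, where Dpep1 deviated by -0.51. A link between Bmal1 and Dpep1 was not tested.

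Of the other steps in handling filtered peptides, 65 genes in 6 lists were tested and 0 passed an adjusted p of 0.05 in limma. An unadjusted p under 0.05 was reached by 3 of them and 9 did not overlap between the groups, which is 13.8%, beside 6.27% and 12.8% of all transcripts. These counts are near or below those shares. Of the medians of the lists that follow, each turned sign or moved by over 1.5 times under some setting or without some array. Among 9 other hydrolases of the border, 5 were higher and 4 lower, with a median log2 fold change of 0.09, which was -0.03 with the mean of a gene's probes and -0.0089 without corn oil replicate 1. Ggt1, which encodes the gamma-glutamyltransferase that starts glutathione breakdown, had 0.20 ± 0.12 (SE) and Cpm, a carboxypeptidase gene, 0.29 ± 0.17.

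Among 10 tested peptide and amino acid transporters of the luminal membrane, 8 were higher and 2 lower, with a median of 0.07. Slc36a1, a proton-coupled amino acid transporter gene, had 0.23 ± 0.07 (SE, limma adjusted p = 0.757; 0.06 and 0.05 with the normexp settings) and Slc6a20a, a proline transporter gene, 0.29 ± 0.13. Neither overlapped between the groups, and the third gene of the list without overlap, Cltrn, was lower in treated rats (-0.18 ± 0.09). Slc15a2, which encodes the high-affinity peptide transporter PEPT2 and was singled out after its values were seen, read 0.42, -0.04 and 0.99 in corn oil rats and 1.14, 0.88 and 1.03 in treated rats, with a change of 0.56 ± 0.26. Its lowest value was again that of corn oil replicate 2, and corn oil replicate 3 lay inside the treated range.

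Inside the cell, soluble peptidases finish the work. Of 13 tested, 3 were higher and 10 lower, with a median of -0.04 and values from -0.13 to 0.09. The 13 include the aminoacylase genes Acy1 and Acy3, both among the lower. Npepps, a cytosolic aminopeptidase gene, had -0.13 ± 0.07 (SE) and Lap3, leucine aminopeptidase, -0.12 ± 0.07. Of 10 scaffold genes of the brush border, 6 were higher and 4 lower, with a median of 0.01, Ush1c at 0.13 ± 0.08 and Myo7b at 0.20 ± 0.12, which encode parts of the microvillar tip complex. Myo7b had 0.08 and 0.06 with the normexp settings and 0.08 without corn oil replicate 2. Of 7 transcription factor genes, 4 were higher and 3 lower, with a median of 0.0077 that was below 0 (-0.04) after normexp, and the bile acid receptor gene Nr1h4 had -0.20 ± 0.10.

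The peptides that these enzymes degrade, and their receptors, gave 10 higher and 6 lower of 16 tested, with a median of 0.16 that was 0.09 with either normexp setting and 0.06 without corn oil replicate 1. Ednra, an endothelin receptor gene, had -0.31 ± 0.09 (SE, limma adjusted p = 0.765), and Npr3, the clearance receptor for natriuretic peptides, 0.33 ± 0.16 (0.21 and 0.20 with the normexp settings).

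Markers of cells that can carry or lack these peptidases were counted in the same way, and 0 of any list passed the threshold. Of 12 proximal tubule markers 9 were higher, with a median of 0.05, Slc22a8 at 0.08 ± 0.07 (SE) and Lrp2 at 0.09 ± 0.09. The 7 S3 markers had a median of 0.09 (-0.10 without corn oil replicate 2 and 0.56 without corn oil replicate 3), with 4 higher, Slc5a1 at -0.26 ± 0.14 and Slc7a13 at 0.37 ± 0.37. Of 7 podocyte markers, a cell that also carries neprilysin and aminopeptidase A, 6 were higher, with a median of 0.20 and Cdkn1c at 0.51 ± 0.20. Of 8 markers of the thick limb, distal tubule and collecting duct, 3 were higher, with a median of -0.03, Atp6v1b1 at -0.17 ± 0.12 and Scnn1b at -0.15 ± 0.16.

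Of 10 tested lymphocyte genes, 8 had an unadjusted limma p under 0.05, beside 6.27% of all transcripts. Of the same 10, 8 did not overlap between the groups, beside 12.8%. Cd5, Cd2 and Cd3e, tested through the corn oil group, are in both counts. An unadjusted p under 0.05 was also reached by 2 of 7 podocyte, 1 of 7 pericyte and fibroblast and 2 of 6 endothelial genes. The lymphocyte genes of smallest p were Cd8b at -0.98 ± 0.09 (SE, limma adjusted p = 0.187) and Cd247 at -0.79 ± 0.08. Ptprc, the common leukocyte antigen, had -0.27 ± 0.12. Of 8 myeloid genes 2 were higher, with a median of -0.08, Itgam at 1.06 ± 0.64 (well above background on 2 of 3 corn oil arrays; 0.48 and 0.44 with the normexp settings, 0.41 without carbon tetrachloride replicate 1) and Aif1 at -0.25 ± 0.16. Of 7 pericyte and fibroblast genes 3 were higher, with a median of -0.16, Rgs5 at 0.17 ± 0.06 and Col3a1 at -0.35 ± 0.16. Of 6 endothelial genes 5 were higher, with a median of 0.07, Nos3 at 0.40 ± 0.07 and Tek at 0.23 ± 0.08. The part of these cells in the peptidase values was not tested.

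**Figure D5:**
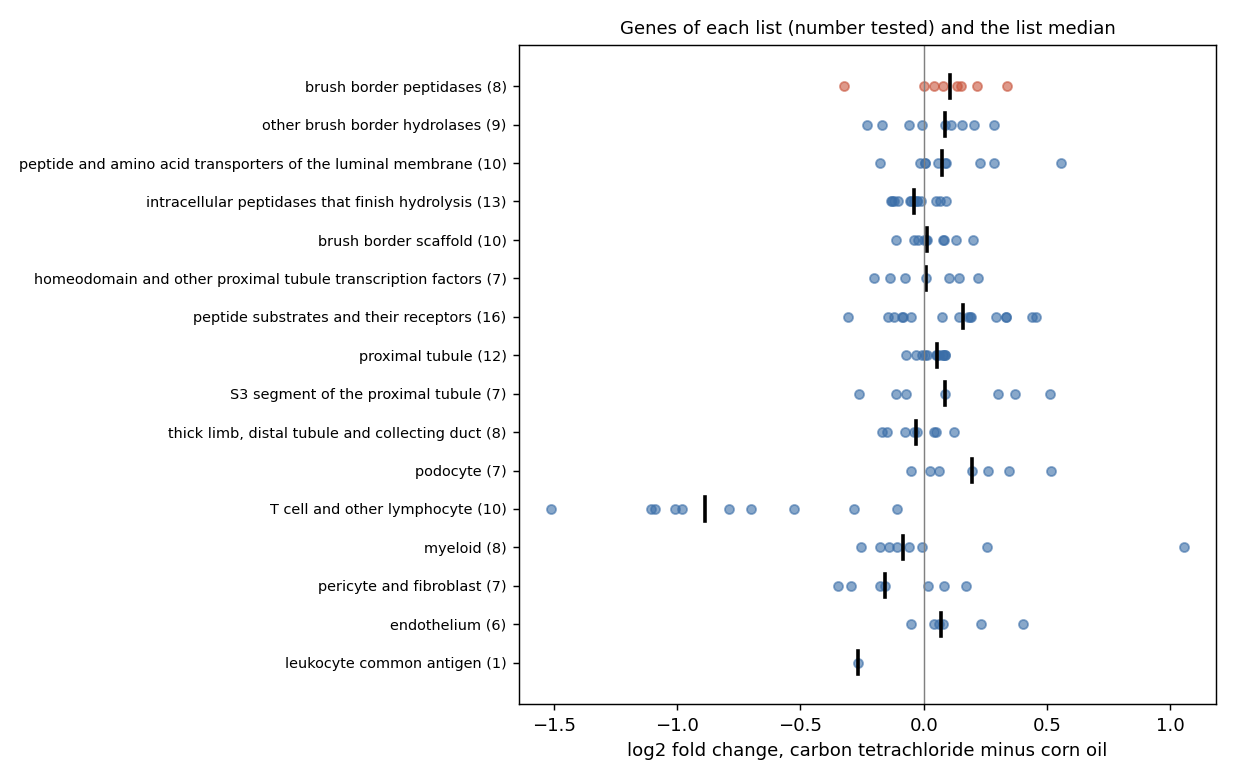
Each point is the log2 fold change, carbon tetrachloride minus corn oil (x axis), of 1 tested gene of the list named on the y axis with its number of tested genes; the black bar is the list's median and the peptidases are in red. The peptidases lie between -0.32 and 0.34, and the lymphocyte genes all lie below 0.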

How the data were processed

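The authors deposited 6 scanner files of linear spot intensity, extracted with Agilent Feature Extraction 10.7.1.1 per the file headers (10.7 per the submitters' processing notes), in which the processed signal is background-subtracted. Their value table, also deposited as linear intensity, holds the same signals after division by a constant of each array (1015 to 1092), so its scale, centring and direction are known. Its medians were 0.118, 0.111 and 0.114 for corn oil and 0.116, 0.115 and 0.111 for carbon tetrachloride replicates 1 to 3.

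Control and outlier spots were left out, and log2 processed signal was set relative to each array's 75th percentile. Tests covered probes whose signal was well above background in every rat of 1 or both groups (42400 of 61537), and the brightest probe stood for a gene. Symbols came from RefSeq accessions (assembly GRCr8), matched for 45.8% of probes. The group difference was fitted by lmFit and eBayes of limma 3.58.1, under R 4.3.3, as a two-sided test with 95% intervals and Benjamini-Hochberg adjustment over 31193 transcripts. The code was tested on simulated data. The number of arrays limits the precision. Normexp (offset 50), an alternative, used the median spot and background signals. Peptidase genes and lists were chosen with earlier results of these data known. Named were all 8 peptidases, the 2 genes of smallest p in each list (some of them, and motif matches in promoters, are not reported here), and the 3 transcripts nearest to the mean profile; nearest transcripts of single peptidases and the order of arrays were added after the values were seen. Alternatives were other background corrections, scalings, filters and probe rules, the deposited table, eBayes with trend and robust fitting, a block for replicate number or for slide, and fits without 1 array. The replicate number was left out of the design because nothing in the labels ties same-numbered rats together.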

Additional observations from a re-analysis of the deposited data

How the results depend on the processing

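Over 18 alternative settings and 5 other probes, 0 of the 8 peptidase genes passed an adjusted p of 0.05 in limma (lowest 0.603, Mep1b without corn oil replicate 3), and 134 of 149 fitted changes kept their direction. Part of that count was fixed in advance. The filters, the trend and robust fit and the replicate block cannot move the fitted changes of the 8. The deposited table differs only by a constant per array. Xpnpep2 was -0.025 and -0.020 with normexp scaled by the 75th percentile or by quantiles and -0.044 with slide as a block or within slide 1, where Anpep was -0.058. These last 2 fits are the same as the fit without carbon tetrachloride replicate 3. Without single arrays the changes ran from -0.058 to 0.34 for Anpep, -0.0088 to 0.12 for Dpp4, -0.081 to 0.21 for Mep1a, -0.064 to 0.48 for Mme, -0.046 to 0.056 for Xpnpep2 and -0.0036 to 0.68 for Slc7a13, and the median of the 8 from -0.0093 to 0.17. Averaged over its probes Lrp2 was -0.042. The cause was not tested. The count of transcripts past the threshold, 1, was 0 with either normexp, without a filter, when probes had to be above background on all 6 arrays, with trend and robust fitting, and with either block or within slide 1, and 0 to 2 without single arrays (2 when corn oil replicate 3 was dropped, and 0 when replicate 2 or 3 of carbon tetrachloride or replicate 1 of corn oil was). Same-numbered rats did not deviate together (correlations -0.02, -0.10 and -0.08 over transcripts), and with the replicate number as a block the count was 0, with 0 of the 8 past the threshold and a median change of 0.11. Of the medians of the 15 lists, 7 turned sign under some setting and all 15 turned or moved by over 1.5 times. The median ran from -0.10 to 0.56 for S3 markers, -0.03 to 0.12 for border hydrolases, -0.02 to 0.09 for scaffold genes, -0.05 to 0.04 for transcription factors, -0.08 to 0.0020 for intracellular peptidases, -0.17 to 0.08 for myeloid genes and -0.15 to 0.04 for distal markers. Of 29 list genes followed through the settings, 2 turned sign (Slc7a13 and Lrp2) and 21 turned or moved by over 1.5 times.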
